A study of Rattus rattus with 6 samples.

Results

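Osteopontin, the product of Spp1, is a secreted phosphoprotein of the extracellular matrix that also acts as a cytokine. It binds integrins through an arginine-glycine-aspartate motif and binds CD44, and it takes part in cell adhesion, in the recruitment of macrophages and in the control of mineralisation. In the healthy adult ventricle little of it is made, and in the injured or overloaded heart it is known as a product of macrophages and fibroblasts that is needed for normal scar formation. It is described here as 1 gene of the 23976 in a table of transcript abundances from rat left ventricle, the row ENSRNOG00000043451. The row was chosen by these same libraries' values, for its rise from young to old. Its difference between ages and its rank are thus descriptions with no test. The pairing of this identifier with the symbol Spp1 came with the choice of the gene. The RefSeq table used here held no Ensembl identifiers, so none of the 23976 could be looked up in it. The symbol was therefore not checked against a reference, and no other gene of the table could be named.

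The libraries came from male wild type rats of the inbred Wistar-Kyoto strain, which has normal blood pressure and serves as control for the spontaneously hypertensive rat. The rats aged naturally, and both age groups were untreated. Young adults were taken at 3 months and old adults at 24 months, with 3 animals each and 1 library per animal. Total RNA of the left ventricle was depleted of ribosomal RNA before directional paired-end sequencing. The sampled tissue could not be checked against marker genes, since no other gene could be named. The old libraries are called OH1, OH2 and OH5 after their columns, whose numbers do not tie them to single old animals.

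Spp1 was higher in every old library than in any young library. Its deposited level in TPM (a length-normalized share of the library, as transcripts per 1000000) was 0.893 in young replicate 1, 0.560 in young replicate 2 and 0.577 in young replicate 3. In old ventricle it was 3.80 in OH1, 7.55 in OH2 and 6.39 in OH5. The ages did not overlap, and the lowest old library stood 4.25-fold above the highest young one. The young mean was 0.677 ± 0.187 TPM and the old mean 5.91 ± 1.92 TPM (SD, n = 3 per age), a ratio of 8.73. In bulk tissue, more cells that make osteopontin and more Spp1 RNA per cell cannot be told apart.

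**Figure D1:**
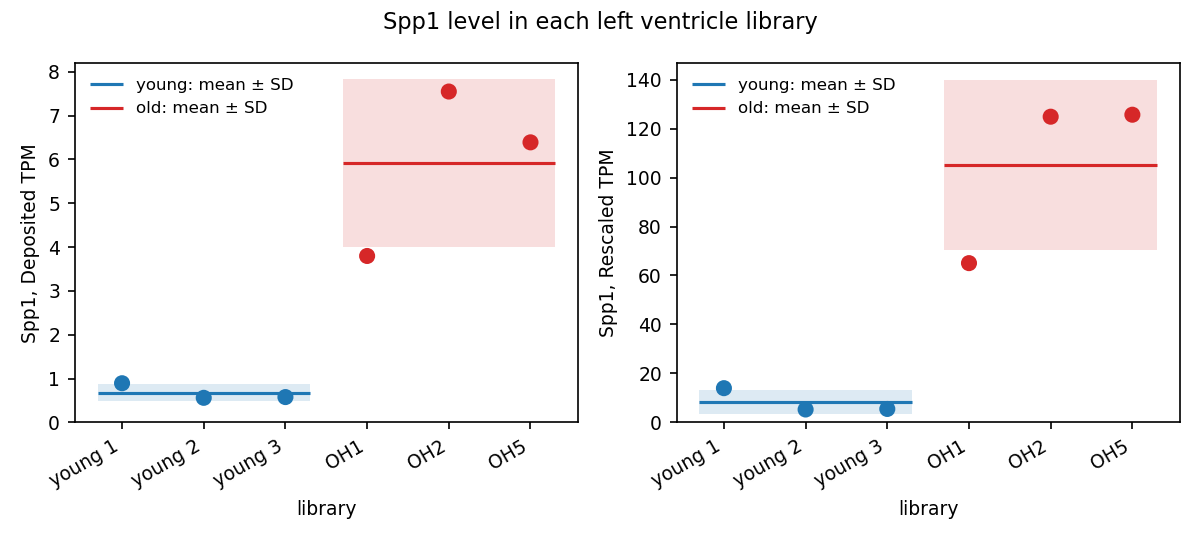
Spp1 in each library (x axis) as deposited TPM (left panel) and as TPM rescaled after the most abundant genes were left out (right panel), both on linear axes from 0. Points are libraries, lines are age means and bands are 1 SD. The old libraries lie at 3.80 to 7.55 deposited TPM, above the young ones at 0.560 to 0.893.

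A TPM value depends on what else is in the library. A set of 15 genes, those averaging 1000 TPM or more, held most of each library, and all other genes together held 6.39%, 10.6% and 10.5% of TPM in young replicates 1, 2 and 3 and 5.08% to 6.05% in the old libraries. The remaining genes were therefore also brought to a sum of 1000000 per library, without these 15. On this rescaled scale Spp1 stood at 14.0 TPM in young replicate 1, 5.26 in young replicate 2 and 5.49 in young replicate 3, against 65.0 in OH1, 125 in OH2 and 126 in OH5. Young replicate 1 was the highest young library on both scales. Rescaling widened the range within young from 1.59-fold to 2.66-fold and brought OH2 and OH5 close together. The rescaled mean was 8.24 ± 4.97 TPM for young ventricle and 105 ± 34.8 TPM for old ventricle (SD, n = 3), a ratio of 12.8, and the lowest old library was 4.65-fold above the highest young one.

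Both scales gave the libraries the same order except for OH2 and OH5. From highest to lowest, rescaled Spp1 ran OH5, OH2, OH1, young replicate 1, young replicate 3, young replicate 2, and as deposited TPM OH2 and OH5 changed places. OH2 and OH5 differed by less than the spread of the old libraries on both scales, as did young replicates 2 and 3 by less than that of the young ones. On the scale of log2(rescaled TPM + 1), the gap between OH1 and young replicate 1 was 2.14, against SDs of 0.712 within young and 0.540 within old. Of the 9486 other tested genes, 13 put the 6 libraries in the same order as rescaled Spp1. How many genes share any other order was not counted, so the 13 are not read as genes that follow Spp1. By the criterion given below, 4 of these 13 were called higher in old ventricle, against 2.66% of all tested genes. This order itself puts every old library above every young one, as 11.3% of the tested genes did, so the 2 shares are not on equal terms.

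The place of Spp1 among the genes of its own library needs no scaling between libraries. Ordered from the most abundant gene down, Spp1 held place 9440 of 23976 in young replicate 1, place 11511 in young replicate 2 and place 11619 in young replicate 3. It held place 3682 in OH1, 1638 in OH2 and 1594 in OH5. Of the genes above 0 TPM in a library, 27.9% to 38.3% lay below Spp1 in the young libraries and 77.7% to 90.1% in the old ones. Spp1 thus moved from the lower part of the detected genes in young ventricle to the upper part in old ventricle. Relative to the median tested gene of the same library, Spp1 was at 0.281, 0.111 and 0.110 in young replicates 1, 2 and 3, and at 1.33 in OH1, 2.63 in OH2 and 2.60 in OH5.

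**Figure D2:**
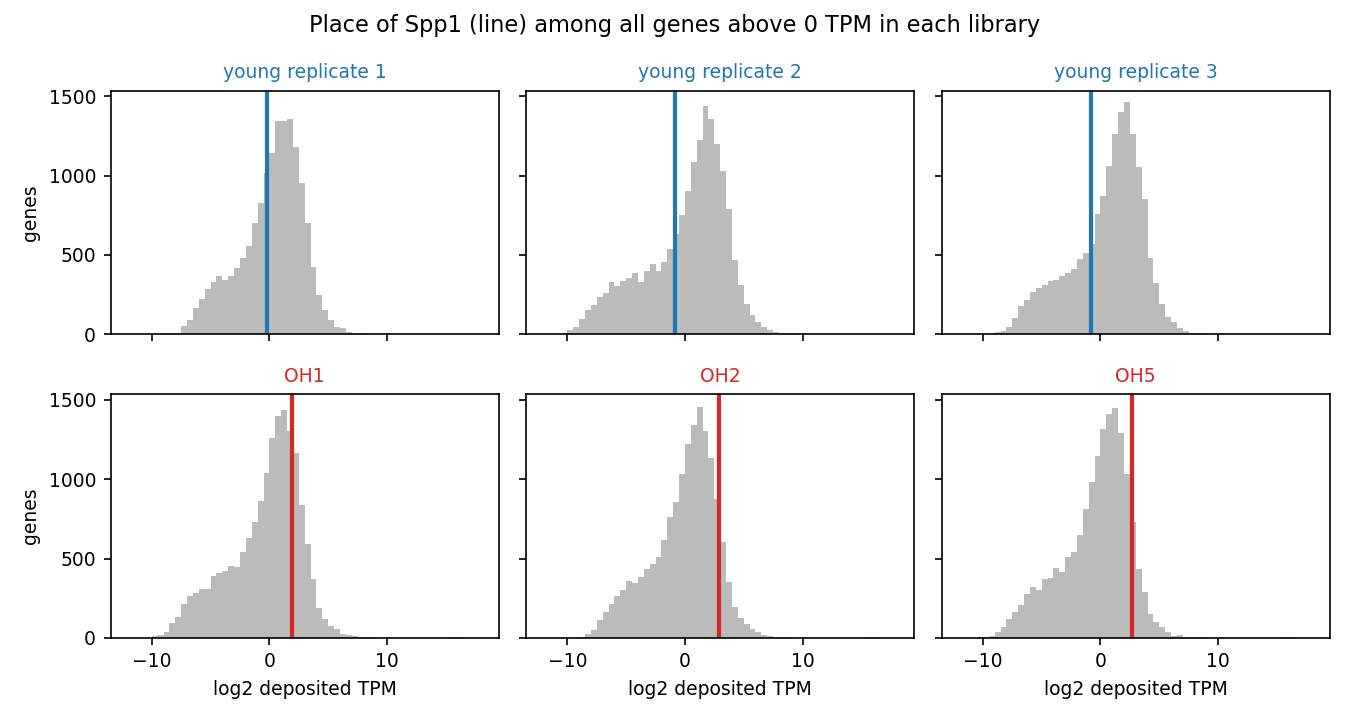
Distribution of log2 deposited TPM over all genes above 0 in each library (x axis log2 TPM, y axis number of genes), with Spp1 as a vertical line, blue in young and red in old libraries. The line lies left of the peak in the 3 young libraries and right of it in the 3 old libraries.

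Spp1 differed between animals of one age more than most genes did. The highest old library was 1.93-fold above the lowest after rescaling, against a median of 1.19-fold over all tested genes, and the corresponding range within young was 2.66-fold against 1.27-fold. On the scale of log2(rescaled TPM + 1), 97.8% of the 9486 other tested genes had a smaller SD than Spp1 within old, and 98.5% had a smaller SD within young. Its mean rescaled level in old was above that of 78.4% of these genes. In young it was above that of only 0.169% of them, so the young SD was taken near the lowest levels tested. The depth of the libraries is not held in TPM values, so no counting error could be set beside these ranges.

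Ages were compared across all genes with at least 1 deposited TPM in at least 3 libraries, by limma-trend on log2(rescaled TPM + 1). A gene was called at a Benjamini-Hochberg adjusted p below 0.05. This called 576 of 9487 genes (6.07%), 252 higher in old (2.66%) and 324 lower (3.42%). On the deposited scale 4533 of 9502 genes were called (47.7%). There 84 were called higher (0.884%) and 4449 lower (46.8%). Spp1 itself passed the filter only through the old libraries, being below 1 TPM in all 3 young ones. A higher level in the old libraries was thus a condition of its being tested.

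Spp1 had the largest log2 fold change of all 9487 tested genes, at 3.59 ± 0.38 (SE) on the rescaled scale, where the median gene was at -0.04 and the median of the genes called higher at 0.99. The gene was selected on these values. The next 3 genes in this order were at 3.26, 3.16 and 3.11, and the gap from Spp1 to the first of them was smaller than the SE of Spp1. Counting changes in both directions, Spp1 came second among the 576 called genes, behind 1 gene that fell. On the deposited scale it came 5th by this count, among 4533 called genes. Ordered by the p of the rescaled fit, in which the spread of the libraries counts too, Spp1 came 12th of the 252 genes called higher. By the plain ratio of rescaled means, without a pseudocount, it held place 3 of the 14498 genes below 1000 TPM that were above 0 in all 6 libraries. By the ratio of the lowest old to the highest young library it was second of all tested genes, of which 11.3% had this ratio above 1.

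**Figure D3:**
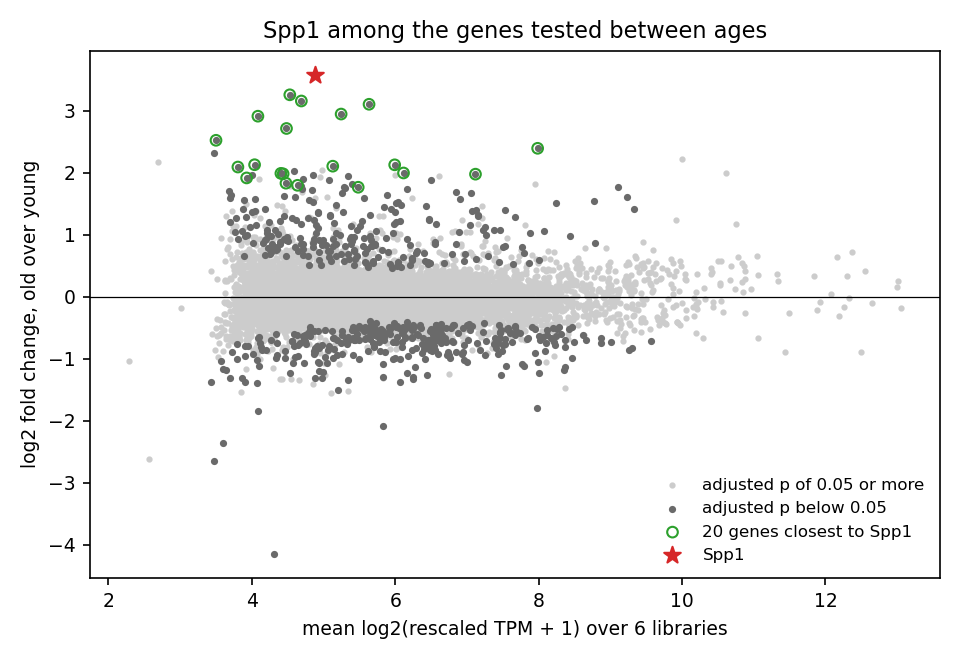
Log2 fold change of old over young (y axis) against the mean of log2(rescaled TPM + 1) over the 6 libraries (x axis), 1 point per tested gene. Dark points are the 576 called genes, green rings the 20 genes closest to Spp1 in pattern, and the red star is Spp1, the highest point at 3.59.

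Column names carry the ending _1 or _2, a mark that the labels do not explain. Among columns ending in _1, Spp1 averaged 0.735 TPM in 2 young libraries and was at 3.80 TPM in OH1, a ratio of 5.16. Among columns ending in _2 it was at 0.560 TPM in young replicate 2 and averaged 6.97 TPM in OH2 and OH5, a ratio of 12.4. Spp1 was higher in old within both suffixes, as it must be where every old library lies above every young one. This is therefore no check on the suffix. OH1, the old library with the least Spp1, is also the single old library with the suffix _1. After rescaling, the ratios within the suffixes were 6.68 and 23.8.

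Genes were then ordered by how closely their pattern over the 6 libraries resembled that of Spp1. The measure was the root mean square difference between log2(rescaled TPM + 1) values after each gene was centred on its own mean, so that a small value means a similar rise and similar differences between animals. The closest gene lay at 0.525 log2 units from Spp1, the 10th at 0.937 and the median of the 9486 other genes at 1.89. No gene lay within 0.5 log2 units and 17 lay within 1. Since Spp1 has the largest rise, the genes close to it are other strong risers by construction, and all of the 20 closest were called higher on both scales. Their log2 fold changes ran from 1.77 to 3.26 with a median of 2.12, and their mean levels from 0.935 to 21.8 TPM.

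The closest gene was ENSRNOG00000043098, at 1.18, 1.46 and 0.829 TPM in young replicates 1, 2 and 3, and at 6.15 in OH1, 6.29 in OH2 and 5.29 in OH5. Its old mean of 5.91 ± 0.540 TPM (SD, n = 3) matched that of Spp1, while its old libraries lay much closer together than those of Spp1. Its log2 fold change after rescaling was 2.95 ± 0.25 (SE). The second closest was ENSRNOG00000008816, at 0.841, 0.780 and 0.471 TPM in young replicates 1, 2 and 3, and at 4.10 in OH1, 2.94 in OH2 and 6.59 in OH5. Its log2 fold change was 3.16 ± 0.41 (SE), and its lowest old library was OH2, the library in which deposited Spp1 was highest. The ages did not overlap for either gene, and both were picked for resembling a gene chosen for its rise. ENSRNOG00000008816 was below 1 TPM in all 3 young libraries, so like Spp1 it passed the filter only through the old ones. Its lack of overlap was thus a condition of its being tested.

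Spp1 lay furthest from the genes closest to it in OH2, and it also lay apart from them in young replicates 2 and 3. Centred on its own mean, Spp1 was at 2.10 in OH2, above all 20 closest genes, whose median there was 0.72 and whose highest value was 1.47. In OH1 Spp1 was at 1.17, near the median of 1.13 of these genes, and 10 of the 20 lay below it. In OH5 it was at 2.11, with 17 of the 20 below it. In 17 of the 20 genes OH2 was the lowest old library, whereas Spp1 had its lowest old value in OH1, as did 3 of the 20. OH2 was the lowest old library for 68.5% of the 251 other genes called higher and for 39.7% of all other tested genes. OH1 was the lowest for 17.9% and 18.1% of them. Among the young libraries Spp1 was at -0.97 in replicate 1, near the median of -0.94 of the 20 genes. It was at -2.23 and -2.18 in replicates 2 and 3, where their medians were -1.28 and -1.26 and 0 and 1 of the 20 lay below it.

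**Figure D4:**
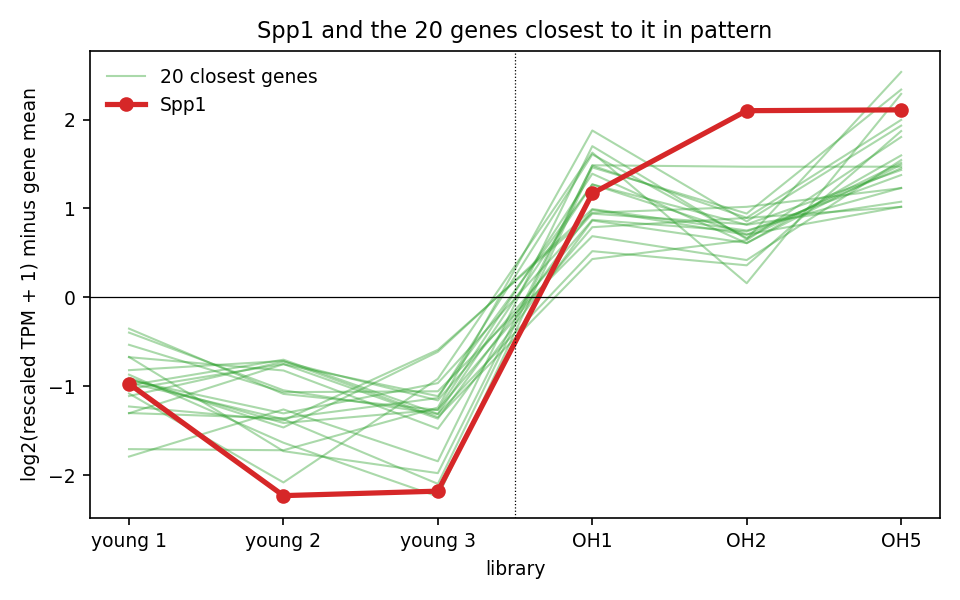
Log2(rescaled TPM + 1) minus the gene's own mean (y axis) in each library (x axis) for Spp1 (red) and the 20 genes closest to it in pattern (green). In OH2 Spp1 is at 2.10, above all 20 genes, which reach at most 1.47 there.

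Which genes count as closest depended on the measure. Ranking by Pearson correlation, which ignores the size of the change, shared 0 of its first 10 genes with the first 10 used here, and a Spearman ranking also shared 0. The first 10 by Pearson had log2 fold changes of 0.10 to 1.80, and 5 of them were called higher. The list also rested on single young libraries, as 3 of the 10 closest genes remained without young replicate 2 and 5 without young replicate 3.

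The height of Spp1 in the order of changed genes was recomputed under 15 alternatives, which share the libraries that chose the gene. Its log2 fold change ran from 2.01 on the deposited scale, where a pseudocount of 1 exceeds the young level, to 4.00 without young replicate 1. Since the gene was selected on these libraries, its direction here is fixed by that choice and is no sign of stability. By fold it held place 1 among the genes called higher in 13 of the 15, place 2 without young replicate 2 and place 4 without OH2.

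**Figure D5:**
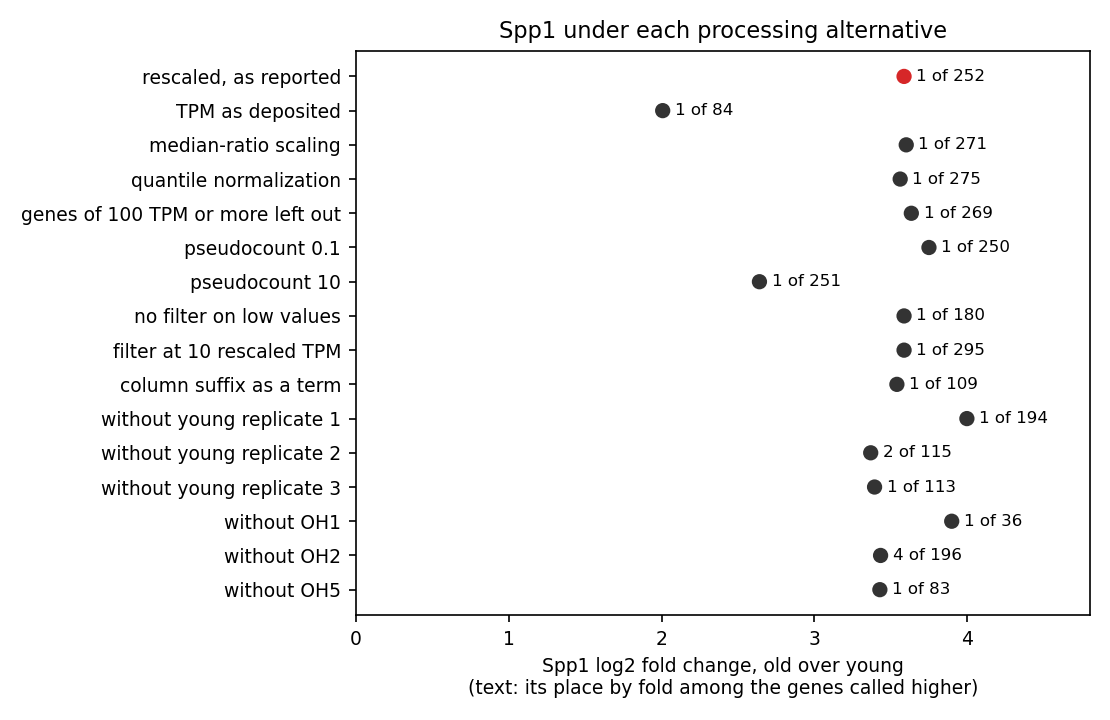
Spp1 log2 fold change of old over young (x axis) for the reported processing (red) and 15 alternatives (black, 1 row each), with its place by fold among the genes called higher. All values are above 0, from 2.01 to 4.00, and the place is 1 in all but 2 alternatives.

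Lists of osteopontin receptors (integrin subunits and Cd44), of enzymes that cleave or modify it, of its SIBLING gene family and of macrophage, fibroblast and other cell markers had been drawn up. No value is given for any of them, since no identifier could be paired with a symbol.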

How the data were processed

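The authors deposited TPM for 23976 Ensembl genes in 6 libraries. Salmon and the build mRatBN7.2 are named, per the submitters' processing notes. Its version was not given in the sources used here, nor was the annotation. Although the labelled species is Rattus rattus, strain and build are those of Rattus norvegicus. Young columns were matched to samples by individual number and old columns to the group alone, and 0 columns were left unmapped. Spp1, the lists and the tests were chosen with earlier results of these data known. The 15 genes averaging 1000 TPM or more were left out and the others rescaled to 1000000. Genes of at least 1 deposited TPM in at least 3 libraries were fitted with limma-trend (limma 3.58.1, R 4.3.3) on log2(rescaled TPM + 1), with age as the only term, after tests on simulated data. With no symbols to be had, the rule for named genes allowed Spp1 and the 2 identifiers closest to it in pattern. Alternative settings changed the scaling, pseudocount, filter, model term, libraries and measure of likeness. TPM keeps no read depth, so no counting interval is given.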

Additional observations from a re-analysis of the deposited data

How the results depend on the processing

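The log2 fold change of Spp1 (3.59) moved by more than the within-age SD with TPM as deposited (2.01) and a pseudocount of 10 (2.64), and lay between 3.37 and 4.00 when single libraries were left out. The count of called genes (576, of which 252 higher and 324 lower) was 4533 (84 higher, 4449 lower) on the deposited scale, 174 (109 and 65) when the column suffix entered the model, and 334 (180 and 154) without a filter other than a value above 0. Leaving out single libraries gave 67 (without OH1) to 453 (without young replicate 1) called genes, 36 to 196 higher and 31 to 259 lower. The totals were 226 without young replicate 2, 194 without young replicate 3, 286 without OH2 and 163 without OH5, and fewer libraries enter these fits. Of the 10 genes closest to Spp1, 3 (without young replicate 2) to 9 remained when single libraries were left out, and 0 with Pearson or Spearman correlation as the measure. Both named close genes stayed called higher in all 15 alternative fits, with directions that their choice fixes. The cause of these shifts was not tested beyond what each alternative changes by construction. Alternatives for the gene lists were not run because no list could be matched. No paired analysis was possible because the old columns carry no replicate number of the labels. Each library also came from a different animal, so such a number would not have paired young with old by animal. What depth limits cannot be stated from TPM.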
